A study of Mus musculus with 17 samples.

Results

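The comparison described here is the effect of IL12-GEMy cells on the lungs of mice that carried a tumor in a leg muscle. It used 8 of the 17 RNA sequencing samples of the study, the 4 lungs labelled as tumor with IL12-GEMy (tumor_GEMy) and the 4 labelled as tumor without treatment (tumor_untreated). All came from C57BL/6 mice given 500000 cells of M3-9-M, a mouse rhabdomyosarcoma line carrying firefly luciferase and mCherry, in the gastrocnemius muscle. The tumor_GEMy mice received 8000000 IL12-GEMy cells by intravenous injection on day 12 after the tumor cells, and lungs of both groups were taken on day 15, which was 3 days after the cells. IL12-GEMy cells are myeloid cells made from bone marrow and engineered to secrete interleukin-12 (IL-12). Lungs of C57BL/6 mice without a tumor, 4 taken 3 days after the same number of IL12-GEMy cells (naive_GEMy) and 4 without them (naive_untreated), entered the fit and the test of the interaction, and the single library of the cell product was left out. Age and sex of the mice, and a group given unmodified myeloid cells, are not described in the sources used here, so the treated lungs differ from the untreated ones by cells and cytokine together. Nothing in the sources says that each of the 4 lungs of a group is a different mouse. The p-values therefore measure how far libraries spread, which may be technical. That spread is pooled over all 16 lungs, the naive ones included, and is not that of the 8 compared lungs alone. The sample descriptions carry the number 1 in all 4 tumor_untreated samples and 2 in all 4 tumor_GEMy samples, and whatever the number stands for cannot be told apart from treatment. Letter codes that follow the number differ between the 4 lungs of each of these groups, and what they stand for is not stated.

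IL-12 is a cytokine of myeloid cells that acts on T cells and natural killer cells through the kinases TYK2 and JAK2 and the transcription factor STAT4, and drives them to make interferon-gamma. Interferon-gamma in turn acts on nearly every cell of the lung through JAK1 and JAK2 and through the transcription factor IRF1. Its known targets include guanylate-binding proteins, immunity-related GTPases, the immunoproteasome, MHC molecules and the checkpoint ligand PD-L1. A lung prepared by a distant tumor, called a pre-metastatic niche, is known for accumulating neutrophils and other myeloid cells that restrain T cells.

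Lung libraries held 27566843 to 36815044 assigned reads. The lung markers were high in all 8 libraries, with the surfactant gene Sftpc at 3479 to 4239 FPKM in tumor_GEMy lungs and 2865 to 3667 FPKM in tumor_untreated lungs, and of the thymocyte markers no gene passed the expression minimum. Replicates correlated at 0.985 to 0.994 in tumor_GEMy and 0.973 to 0.995 in tumor_untreated (Pearson r of log2 values across genes). The naive groups, which share the estimate of the spread, correlated at 0.992 to 0.996 in naive_GEMy and 0.992 to 0.997 in naive_untreated. Hemoglobin transcripts took 0.225 to 1.78% of reads in tumor_GEMy and 0.404 to 4.15% in tumor_untreated. On the second principal component, which held 18.6% of the variance of the 16 lungs, tumor_GEMy libraries lay at -10.4 to -0.586 and tumor_untreated libraries at 6.85 to 17.2. The tumor_untreated libraries were spread out, and in each of the 15 tested guanylate-binding protein and immunity-related GTPase genes replicate 1 was the lowest and replicate 4 the highest of that group.

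Of 10284 genes tested with limma, 692 (6.73%) passed an adjusted p of 0.05, 309 higher (3.00%) and 383 lower (3.72%) in tumor_GEMy. At least a 2-fold change was reached by 50 of the higher genes (0.486% of those tested) and 18 of the lower genes (0.175%). The 4 values of one group lay wholly above the 4 of the other for 483 higher genes (4.70%) and 494 lower genes (4.80%). The count depended on how the spread was estimated: a fit limited to the 8 tumor-bearing libraries called 124 higher and 86 lower genes, and leaving out tumor_GEMy replicate 2 gave 451 calls in all. The number of lower genes was 224 without tumor_GEMy replicate 2, 243 without tumor_untreated replicate 2, 248 without tumor_untreated replicate 3 and 576 without tumor_untreated replicate 1. The genes lower by at least 2-fold numbered 31 without tumor_GEMy replicate 1. Values are FPKM, fragments per 1000 bases of gene span and 1000000 assigned reads, and fold changes are differences of log2(FPKM + 0.5), which understate the change of genes near or below 0.5 FPKM. Each fold change below comes with the SE of the fit or an adjusted p from limma, with n = 4 libraries in each group. In bulk lung, fewer cells of a type and less RNA per cell cannot be told apart.

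**Figure D1:**
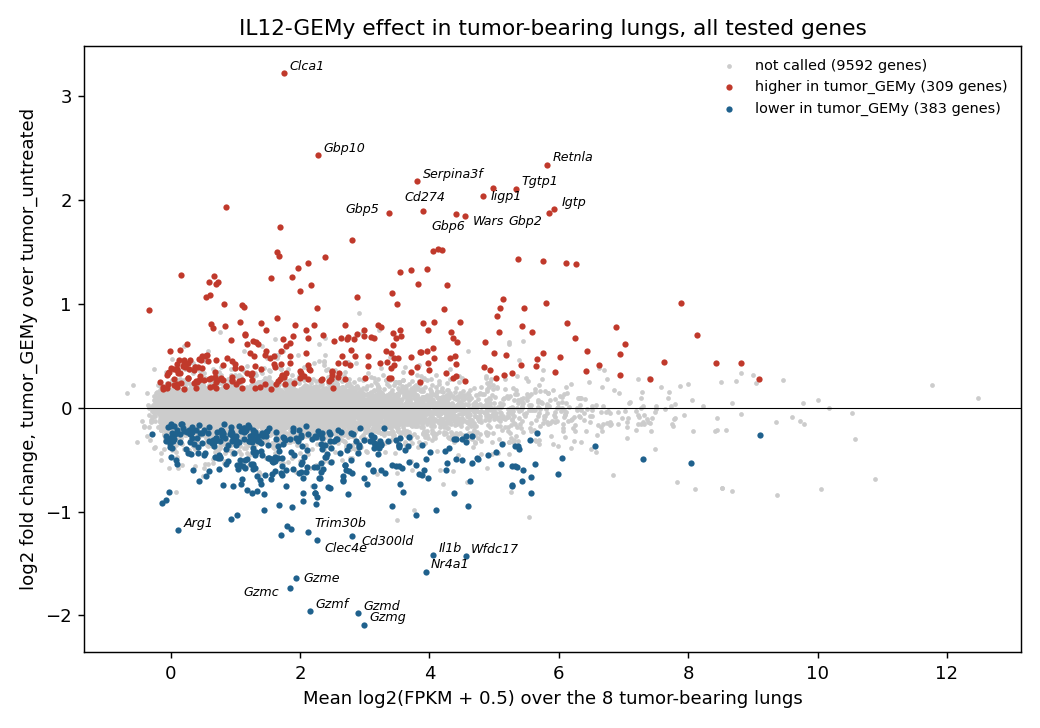
Each point is 1 of the 10284 tested genes, with its mean log2(FPKM + 0.5) over the 8 tumor-bearing lungs on the x axis and the log2 fold change of tumor_GEMy over tumor_untreated on the y axis. The 309 higher genes are red and the 383 lower genes are blue, and the names are the 12 largest rises and 12 largest falls chosen by the rule for named genes.

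The IL-12 subunit genes themselves were low in both groups. Il12b, which encodes the p40 subunit, measured 0.195, 0.265, 0.265 and 0.322 FPKM in tumor_GEMy lungs, against 0.188, 0.149, 0.313 and 0.270 FPKM in tumor_untreated lungs, and Il12a, which encodes the p35 subunit, lay at 0.0886 to 0.115 FPKM in tumor_GEMy lungs and 0.0801 to 0.174 FPKM in tumor_untreated lungs. The groups overlapped for both genes, neither reached the expression minimum, and neither was tested. Whether reads of the engineered IL-12 construct are counted under these genes is not given in the sources used here. Of the 8 tested genes for IL-12 and IL-18 receptors, their kinases and T helper 1 factors, 3 rose and 0 fell, with a median log2 fold change of 0.07 against -0.01 over all tested genes. The 3 were the receptor chain Il12rb1, the lineage factor Tbx21 and the cytokine Ifng. Il12rb1 measured 0.772, 0.671, 0.779 and 0.575 FPKM in tumor_GEMy lungs, against 0.221, 0.320, 0.386 and 0.352 FPKM in tumor_untreated lungs. The groups were separate (log2 fold change 0.55, SE 0.08, adjusted p = 0.000624), and Il12rb1 passed the minimum, 0.5 FPKM in at least 4 of 16 lungs, only through its tumor_GEMy values. Tbx21, which encodes the T helper 1 factor T-bet, measured 1.43, 1.45, 1.89 and 1.47 FPKM in tumor_GEMy lungs, against 0.374, 0.706, 0.871 and 0.795 FPKM in tumor_untreated lungs (log2 fold change 0.81, SE 0.13, adjusted p = 0.00118), with every tumor_GEMy library above every tumor_untreated one. Ifng measured 1.46, 1.94, 2.30 and 1.34 FPKM in tumor_GEMy lungs, against 0.224, 0.341, 0.666 and 1.18 FPKM in tumor_untreated lungs, where tumor_untreated replicate 4 came close to the lowest treated lung (log2 fold change 1.09, SE 0.20, adjusted p = 0.00347). Tyk2 (0.05), Jak2 (-0.03), Il18r1 (0.09) and Il18rap (0.04) did not pass, on the log2 scale, and Stat4 was below the minimum. In a fit limited to the 8 tumor-bearing libraries, the call of Ifng was lost (adjusted p = 0.0653).

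Genes of the interferon receptor pathway moved in both directions, and the receptor chain gene Ifnar2 did not pass. Of 17 tested members of the interferon receptor, STAT, IRF and feedback list, 7 rose and 4 fell (2 fell without tumor_GEMy replicate 2, and 4 rose and 1 fell in a fit of the 8 tumor-bearing libraries). Among those that rose were Stat2, Irf1, Irf8, Irf9, Socs1 and Usp18. Irf1, an interferon-induced transcription factor, measured 82.5, 84.2, 81.3 and 66.6 FPKM in tumor_GEMy lungs, against 25.7, 39.8, 44.1 and 50.0 FPKM in tumor_untreated lungs (log2 fold change 1.01, SE 0.15, adjusted p = 0.000880). Its groups were separate, with tumor_GEMy replicate 4 below the other treated lungs. Socs1, the feedback inhibitor of JAK kinases, measured 9.21, 11.2, 11.1 and 3.86 FPKM in tumor_GEMy lungs, against 1.48, 2.68, 3.13 and 3.92 FPKM in tumor_untreated lungs (log2 fold change 1.45, SE 0.28, adjusted p = 0.00458), and here replicate 4 of tumor_GEMy fell among the untreated values. Against these rises, the receptor chain genes Ifngr1 (log2 fold change -0.41, adjusted p = 0.000431), Ifngr2 (-0.28, adjusted p = 0.0170) and Ifnar1 (-0.24, adjusted p = 0.0128) fell, as did Socs3 (-0.54, adjusted p = 0.00565), the feedback inhibitor best known from IL-6 family signalling. The Irf9 call was lost without tumor_GEMy replicate 1, 2, 3 or 4 or tumor_untreated replicate 1, 2 or 3 (adjusted p = 0.0563 to 0.106). The Ifngr2 call was lost without tumor_GEMy replicate 2 or tumor_untreated replicate 2 or 3 (adjusted p = 0.0534 to 0.0680) and the Ifnar1 call without tumor_GEMy replicate 2 (adjusted p = 0.0505). The calls of Irf8, Irf9, Socs1, Ifngr2, Ifnar1 and Socs3 were lost when the 8 tumor-bearing libraries were fitted alone (adjusted p = 0.0600 to 0.199).

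**Figure D2:**
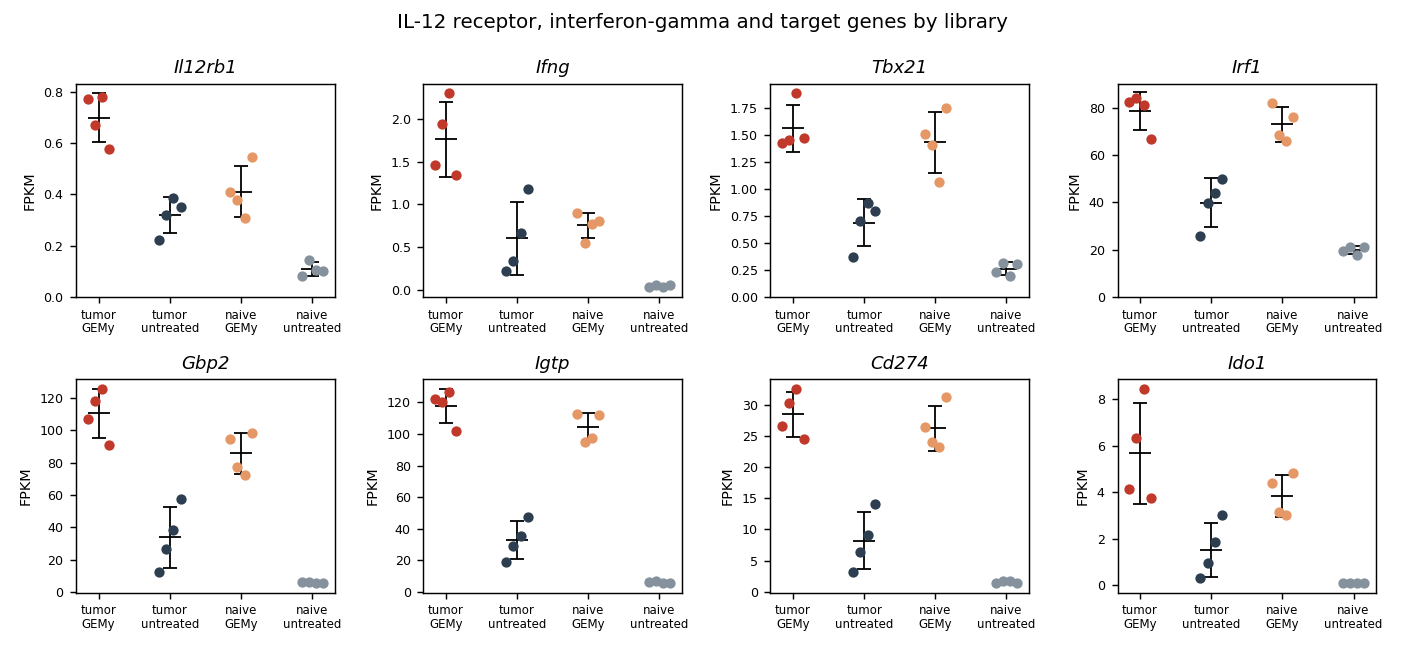
FPKM of 8 genes in each lung library, with points for libraries, bars for the group mean and whiskers for the SD (n = 4), and groups ordered as tumor_GEMy, tumor_untreated, naive_GEMy and naive_untreated. Each gene had all 4 tumor_GEMy values above all 4 tumor_untreated values, and Irf1 lay at 66.6 to 84.2 FPKM in tumor_GEMy lungs and 25.7 to 50.0 FPKM in tumor_untreated lungs.

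The interferon-induced GTPases rose without exception among the genes tested. All 9 tested guanylate-binding protein genes and all 6 tested immunity-related GTPase genes were called higher. The median log2 fold change was 1.53 for the guanylate-binding proteins and 1.66 for the immunity-related GTPases, and in all 15 the groups were separate. These proteins attack the membranes of vacuoles that hold intracellular microbes. Gbp2 (chr3:142620663-142638009, mm10) measured 107, 118, 125 and 90.9 FPKM in tumor_GEMy lungs, against 12.7, 26.6, 38.1 and 57.6 FPKM in tumor_untreated lungs (log2 fold change 1.88, SE 0.30, adjusted p = 0.00135). Gbp5 measured 16.6, 21.6, 22.2 and 17.8 FPKM in tumor_GEMy lungs, against 1.95, 4.45, 6.70 and 9.25 FPKM in tumor_untreated lungs (log2 fold change 1.88, SE 0.29, adjusted p = 0.000992). Both showed a wide spread among untreated lungs and a narrow one among treated lungs. Igtp (chr11:58199556-58207593), which encodes the immunity-related GTPase Irgm3, measured 122, 120.1, 126 and 102 FPKM in tumor_GEMy lungs, against 18.7, 28.9, 35.6 and 47.5 FPKM in tumor_untreated lungs (log2 fold change 1.91, SE 0.19, adjusted p = 3.12e-05). Gbp10 had the largest rise of its family (log2 fold change 2.43, adjusted p = 7.28e-05) and Gbp9 the smallest (0.72, adjusted p = 0.0269). The Gbp9 call was lost without tumor_GEMy replicate 2, 3 or 4 or tumor_untreated replicate 2 (adjusted p = 0.0598 to 0.0702) and in a fit of the 8 tumor-bearing libraries (adjusted p = 0.138). Gbp2b and Gbp11 were below the minimum. Among the immunity-related GTPases Iigp1 measured 47.6, 57.8, 64.0 and 61.3 FPKM in tumor_GEMy lungs, against 6.58, 12.2, 17.7 and 23.2 FPKM in tumor_untreated lungs (log2 fold change 2.04, SE 0.27, adjusted p = 0.000315), again with separate groups. Leaving out 1 library left 8 or 9 of the guanylate-binding protein calls and all 6 of the others. Members of both families are close paralogs, with Tgtp1 and Tgtp2 nearly identical, and how their reads were shared out is uncertain.

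Promoters of these genes are shown because members of both families moved together. The 250 bases before the gene start, from RefSeq on GRCm38.p6 (the assembly of mm10), were searched on both strands for 2 motifs: the interferon-stimulated response element, ISRE, as GAAA and GAAA with any 2 bases between them, and the gamma-activated site, GAS, as TTCNNNGAA. Capitals mark every match, also where it lies on the other strand, and sequences run 5′ to 3′ on the gene's strand. Gbp2 at chr3:142620413-142620662, plus strand, Gbp5 at chr3:142496684-142496933, plus strand, Igtp at chr11:58199306-58199555, plus strand, Irf1 at chr11:53769764-53770013, plus strand and Cd274, the gene of PD-L1, at chr19:29367188-29367437, plus strand had these sequences.
Gbp2: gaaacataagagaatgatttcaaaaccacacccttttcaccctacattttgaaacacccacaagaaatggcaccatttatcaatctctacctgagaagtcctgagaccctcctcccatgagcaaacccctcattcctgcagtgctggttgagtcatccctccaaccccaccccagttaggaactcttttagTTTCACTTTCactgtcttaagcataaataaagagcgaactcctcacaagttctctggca
Gbp5: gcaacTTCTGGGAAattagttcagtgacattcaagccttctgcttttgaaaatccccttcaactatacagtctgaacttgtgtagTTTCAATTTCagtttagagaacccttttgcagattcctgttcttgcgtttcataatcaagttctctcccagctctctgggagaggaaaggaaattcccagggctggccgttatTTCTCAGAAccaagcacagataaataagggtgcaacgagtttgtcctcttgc
Igtp: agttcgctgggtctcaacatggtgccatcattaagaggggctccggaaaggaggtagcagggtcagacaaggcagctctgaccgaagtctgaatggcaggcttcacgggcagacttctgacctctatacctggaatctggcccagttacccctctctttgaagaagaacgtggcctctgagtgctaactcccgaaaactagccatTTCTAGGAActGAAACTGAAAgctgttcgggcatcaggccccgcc
Irf1: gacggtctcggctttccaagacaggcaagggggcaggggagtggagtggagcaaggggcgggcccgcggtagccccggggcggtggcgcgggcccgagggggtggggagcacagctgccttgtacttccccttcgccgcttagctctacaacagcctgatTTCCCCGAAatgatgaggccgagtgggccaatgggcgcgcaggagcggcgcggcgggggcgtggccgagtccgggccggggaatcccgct
Cd274: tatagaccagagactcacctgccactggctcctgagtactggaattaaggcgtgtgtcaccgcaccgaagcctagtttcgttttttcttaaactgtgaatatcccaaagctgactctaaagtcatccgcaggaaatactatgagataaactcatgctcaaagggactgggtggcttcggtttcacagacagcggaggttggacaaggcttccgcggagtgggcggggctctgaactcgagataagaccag
Gbp2 held an ISRE, Gbp5 an ISRE with a pair of GAS matches, Igtp an ISRE beside a GAS, and Irf1 a GAS, while the Cd274 window held neither motif. A promoter entry was found for 8126 of the 10284 tested genes. All 4 guanylate-binding protein genes and all 5 immunity-related GTPase genes with a promoter entry held an ISRE. Of the 5 immunoproteasome genes, Psmb9 among them and all called higher, 0 held one, and of 15 MHC class I genes 3 did. Among all tested genes with an entry, 239 of 8126 (2.9%) held an ISRE and 466 (5.7%) a GAS. The shares were 38 of 227 (16.7%) and 28 of 227 (12.3%) for genes that rose, and 17 of 304 (5.6%) and 22 of 304 (7.2%) for genes that fell. A match is a description of these letters and not a binding site.

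Antigen presentation genes and the exchange subunits of the proteasome rose, and no constitutive proteasome gene passed. All 5 tested immunoproteasome genes rose, at a median log2 fold change of 0.73, while 0 of 20 constitutive proteasome subunits passed in either direction, with a median of 0.06. Psmb9, a catalytic subunit that replaces a constitutive one in the immunoproteasome, measured 22.7, 24, 22.2 and 19 FPKM in tumor_GEMy lungs, against 9.35, 12.2, 14.2 and 13.1 FPKM in tumor_untreated lungs (log2 fold change 0.83, SE 0.11, adjusted p = 0.000302). Psmb8 (0.82, adjusted p = 0.00324) and Psmb10 (0.73, adjusted p = 0.00425), the other catalytic exchange subunits, rose by similar amounts on the log2 scale. The constitutive subunit genes Psmb5 (0.06), Psmb6 (0.11) and Psmb7 (0.03) had log2 fold changes near the median of all genes. Of 19 tested MHC class I chain and peptide loading genes, 16 rose (11 to 15 when any 1 library was left out, and 7 in a fit of the 8 tumor-bearing libraries). The peptide transporter gene Tap1 measured 53.1, 55.8, 51.6 and 41.0 FPKM in tumor_GEMy lungs, against 15.8, 23.5, 28.6 and 30.9 FPKM in tumor_untreated lungs (log2 fold change 1.05, SE 0.16, adjusted p = 0.00109), its partner Tap2 rose by 0.83 (adjusted p = 0.00238), and Nlrc5, the transactivator of class I genes, had a log2 fold change of 0.75 (adjusted p = 0.00140). H2-T23, which encodes the nonclassical molecule Qa-1, measured 355, 367, 341 and 286 FPKM in tumor_GEMy lungs, against 133, 158, 185 and 196 FPKM in tumor_untreated lungs (log2 fold change 1.01, SE 0.12, adjusted p = 0.000145). In each of these genes every treated lung lay above every untreated one. B2m, the shared light chain, had a log2 fold change of 0.33 and did not pass (adjusted p = 0.0600), though it passed without tumor_untreated replicate 3 (adjusted p = 0.0456) or 4 (adjusted p = 0.0356). Reads of class I heavy chain genes are hard to divide among near-identical copies.

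Of 12 tested MHC class II genes, 7 rose, with a median log2 fold change of 0.44. Ciita, the master transactivator of class II genes, measured 4.89, 5.87, 4.78 and 5.30 FPKM in tumor_GEMy lungs, against 1.34, 1.73, 2.35 and 2.27 FPKM in tumor_untreated lungs, more than any of its untreated values in each treated lung (log2 fold change 1.26, SE 0.12, adjusted p = 1.99e-05). H2-DMa, part of the chaperone that loads class II peptides, measured 10.1, 12.2, 9.91 and 10.3 FPKM in tumor_GEMy lungs, against 5.6, 5.92, 7.61 and 7.04 FPKM in tumor_untreated lungs (log2 fold change 0.67, SE 0.10, adjusted p = 0.000624), and H2-Ab1 lay at 139.7 to 166 FPKM in tumor_GEMy lungs and 96.4 to 120.1 FPKM in tumor_untreated lungs (log2 fold change 0.52, SE 0.10, adjusted p = 0.00341). The B cell associated H2-Ob (-0.07) and H2-Oa (0.19) did not pass on the log2 scale.

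The classical antiviral genes moved unevenly. For reference, 3.00% of all tested genes rose and 3.72% fell. Of 31 tested type I interferon-induced genes, 17 rose and 0 fell, with a median log2 fold change of 0.46 (13 to 19 rose when any 1 library was left out, and 8 in a fit of the 8 tumor-bearing libraries). Ifit3, which encodes an RNA-binding antiviral protein, measured 59.2, 82.0, 72.6 and 57.4 FPKM in tumor_GEMy lungs, against 15.6, 27.5, 31.0 and 27.2 FPKM in tumor_untreated lungs (log2 fold change 1.43, SE 0.17, adjusted p = 0.000180). Zbp1, a sensor of nucleic acids that can start cell death, measured 14.6, 16.8, 15.6 and 13.9 FPKM in tumor_GEMy lungs, against 3.23, 7.21, 8.56 and 10.3 FPKM in tumor_untreated lungs (log2 fold change 1.11, SE 0.23, adjusted p = 0.00642). Both had separate groups, and reads of Ifit3 and its copy Ifit3b may be shared. Rsad2 (0.05, 95% interval -0.56 to 0.66), Mx1 (-0.02, -0.32 to 0.28), Oas3 (0.05, -0.36 to 0.47) and Isg20 (-0.03, -0.42 to 0.36) did not pass, as log2 fold changes. None of 9 tested p200 family genes, which encode DNA sensors, passed (2 fell without tumor_untreated replicate 1). Among 6 tested Schlafen genes, Slfn4 of myeloid cells was the 1 that fell, and 1 other gene rose without tumor_untreated replicate 3. It measured 12.9, 7.73, 7.04 and 7.80 FPKM in tumor_GEMy lungs, against 11.0, 15.9, 15.8 and 20.8 FPKM in tumor_untreated lungs, with tumor_GEMy replicate 1 inside the untreated range (log2 fold change -0.81, SE 0.18, adjusted p = 0.0118). Fitting the 8 tumor-bearing libraries alone ended the calls of Zbp1 and Slfn4 (adjusted p = 0.0858 to 0.0976). Of 5 tested Serpina3 serpin genes 2 rose, and of these Serpina3g measured 5.66, 7.75, 7.71 and 5.36 FPKM in tumor_GEMy lungs, against 1.44, 1.72, 2.86 and 3.11 FPKM in tumor_untreated lungs (log2 fold change 1.39, SE 0.19, adjusted p = 0.000334) with separate groups. Serpina3f lay at 22.6 to 34.4 FPKM in tumor_GEMy lungs and 3.68 to 9.47 FPKM in tumor_untreated lungs, and reads of these neighbouring copies may be shared.

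Genes whose products restrain immune responses did not move as a block. Of 8 tested inhibitory ligand and receptor genes 2 rose and 1 fell, where 3.00% of all tested genes rose and 3.72% fell. Cd274 lay at 24.5 to 32.5 FPKM in tumor_GEMy lungs and 3.20 to 14.0 FPKM in tumor_untreated lungs. Lgals9, which encodes galectin-9, measured 11.6, 10.9, 10.1 and 9.20 FPKM in tumor_GEMy lungs, against 6.87, 7.61, 8.03 and 7.84 FPKM in tumor_untreated lungs (log2 fold change 0.43, SE 0.07, adjusted p = 0.00138), and Cd244a, a receptor of natural killer and T cells, measured 0.815, 0.876, 0.757 and 1.02 FPKM in tumor_GEMy lungs, against 1.20, 1.77, 2.22 and 2.01 FPKM in tumor_untreated lungs (log2 fold change -0.74, SE 0.11, adjusted p = 0.000858). The groups were separate for all 3 genes, Cd274 and Lgals9 higher and Cd244a lower in treated lungs. A second gene of the list fell without tumor_untreated replicate 1. Lag3 (-0.10, 95% interval -0.38 to 0.19) and Havcr2 (-0.37, -0.68 to -0.06), receptors of activated T cells, did not pass, as log2 fold changes, and Havcr2 fell without tumor_untreated replicate 1 (adjusted p = 0.0248). Il18bp, which encodes the soluble binding protein that neutralizes IL-18, measured 28.2, 30.6, 29.3 and 22.3 FPKM in tumor_GEMy lungs, against 5.39, 8.63, 11.1 and 14.4 FPKM in tumor_untreated lungs (log2 fold change 1.51, SE 0.20, adjusted p = 0.000305), with separate groups. Il10, which encodes an anti-inflammatory cytokine, measured 0.551, 0.579, 0.774 and 0.50 FPKM in tumor_GEMy lungs, against 0.0588, 0.0506, 0.0920 and 0.0842 FPKM in tumor_untreated lungs (log2 fold change 0.94, SE 0.07, adjusted p = 4.68e-06). Those values rest on 402 reads over the 4 tumor_GEMy libraries and 45 over the 4 tumor_untreated libraries. Each treated lung was above every untreated one, and Il10 passed the minimum only through the 4 tumor_GEMy libraries, so it was not tested when any of them was left out. Tgfb1 fell (log2 fold change -0.36, SE 0.09, adjusted p = 0.0299), and that call was lost without tumor_GEMy replicate 3 or 4 or tumor_untreated replicate 2 or 3 (adjusted p = 0.0738 to 0.105). When no naive library entered the fit, the call of Tgfb1 was lost (adjusted p = 0.109).

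Amino acid enzymes linked to T cell restraint moved in opposite directions. Ido1, which degrades tryptophan, measured 4.16, 6.33, 8.45 and 3.77 FPKM in tumor_GEMy lungs, against 0.315, 0.944, 1.84 and 3.01 FPKM in tumor_untreated lungs (log2 fold change 1.74, SE 0.34, adjusted p = 0.00508), with tumor_untreated replicate 4 just under the lowest treated lung. Wars, the tryptophanyl transfer RNA synthetase and an interferon-gamma target, measured 45.9, 47.2, 45.7 and 37.9 FPKM in tumor_GEMy lungs, against 8.45, 11.6, 13.0 and 15.5 FPKM in tumor_untreated lungs (log2 fold change 1.85, SE 0.15, adjusted p = 7.18e-06). All treated values lay above all untreated ones, with tumor_GEMy replicate 4 the lowest of its group. Arg1, an arginase that depletes arginine, measured 0.142, 0.250, 0.212 and 0.298 FPKM in tumor_GEMy lungs, against 0.549, 0.801, 1.55 and 2.04 FPKM in tumor_untreated lungs (log2 fold change -1.18, SE 0.19, adjusted p = 0.00140). All treated values lay below all untreated ones, which were widely spread. Arg1 passed the minimum only through tumor_untreated values. Nos2, which encodes inducible nitric oxide synthase, was below the minimum at 0.193 to 0.331 FPKM in tumor_GEMy lungs and 0.273 to 0.764 FPKM in tumor_untreated lungs, with overlapping groups, and was not tested. Of the 8 tested genes of this list 2 rose and 2 fell, where 3.00% of all tested genes rose and 3.72% fell. The second fall of the list was Arg2 (log2 fold change -0.33, adjusted p = 0.00960). The number that fell was 1 without any 1 of the 4 tumor_untreated libraries. In a fit limited to the 8 tumor-bearing libraries, the calls of Ido1, Arg1 and Arg2 were lost (adjusted p = 0.0539 to 0.0849).

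Among 27 tested chemokine genes 6 rose and 1 fell, where 3.00% of all tested genes rose and 3.72% fell. Xcl1, the ligand that draws cross-presenting dendritic cells, measured 1.35, 2.08, 1.99 and 1.18 FPKM in tumor_GEMy lungs, against 0.210, 0.644, 0.655 and 0.596 FPKM in tumor_untreated lungs (log2 fold change 1.07, SE 0.18, adjusted p = 0.00187). Its receptor gene Xcr1, a marker of those dendritic cells, measured 1.12, 1.25, 1.23 and 1.53 FPKM in tumor_GEMy lungs, against 0.733, 0.668, 0.877 and 0.704 FPKM in tumor_untreated lungs (log2 fold change 0.51, SE 0.07, adjusted p = 0.000556). Ligand and receptor genes both had separate groups, and of the other 7 tested dendritic cell genes only Ccl22 passed (0.67, adjusted p = 0.00238). One more dendritic cell gene fell without tumor_GEMy replicate 4 or tumor_untreated replicate 1. Ccl8, a ligand for monocyte and T cell receptors, measured 9.17, 9.89, 10.8 and 11.0 FPKM in tumor_GEMy lungs, against 4.22, 4.00, 4.22 and 6.20 FPKM in tumor_untreated lungs (log2 fold change 1.07, SE 0.12, adjusted p = 6.52e-05). Ccl19, which guides CCR7-bearing cells to lymphoid tissue, measured 1.78, 3.01, 1.79 and 1.67 FPKM in tumor_GEMy lungs, against 1.21, 0.748, 0.691 and 0.479 FPKM in tumor_untreated lungs (log2 fold change 1.00, SE 0.18, adjusted p = 0.00267), and Ccr7 itself did not pass (-0.36, 95% interval -0.68 to -0.03). Ccl12 (0.97) and Ccl21a (0.33) also rose on the log2 scale, and Ccl9 (-0.73, adjusted p = 0.00443) fell. The calls of Ccl21a and Ccl9 were lost when the 8 tumor-bearing libraries were fitted alone (adjusted p = 0.0620 to 0.0636). The interferon-induced Cxcl10 measured 22.3, 40.8, 36.3 and 20.5 FPKM in tumor_GEMy lungs, against 6.98, 16.6, 29.5 and 41.1 FPKM in tumor_untreated lungs and did not pass (log2 fold change 0.55, SE 0.39, adjusted p = 0.488). Its untreated values ran from below to above all treated ones. Cxcl9, another ligand of CXCR3, measured 8.59, 14.6, 10.6 and 10.0 FPKM in tumor_GEMy lungs, against 3.62, 7.02, 17.6 and 23.9 FPKM in tumor_untreated lungs, with overlapping groups and a wide spread among untreated lungs (log2 fold change 0.06, SE 0.39, adjusted p = 0.963). Its log2 fold change turned to -0.40 without tumor_untreated replicate 1, -0.12 without tumor_untreated replicate 2 and -0.08 without tumor_GEMy replicate 2.

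Among 16 tested chemokine receptor genes 4 rose and 3 fell, where 3.00% of all tested genes rose and 3.72% fell. The receptor counts were 3 and 1 without tumor_GEMy replicate 2, 2 and 2 without tumor_GEMy replicate 3, and 5 and 1 without tumor_untreated replicate 4. Cxcr4, which retains leukocytes in marrow and tissue, measured 19.5, 16.9, 18.2 and 20.8 FPKM in tumor_GEMy lungs, against 27.6, 30.7, 31.7 and 34.9 FPKM in tumor_untreated lungs (log2 fold change -0.71, SE 0.09, adjusted p = 0.000236), with separate groups. Cxcr2, the receptor that draws neutrophils, measured 26.6, 15.1, 9.80 and 20.6 FPKM in tumor_GEMy lungs, against 31.3, 27.4, 29.7 and 47.6 FPKM in tumor_untreated lungs (log2 fold change -0.95, SE 0.23, adjusted p = 0.0206), a call lost without tumor_GEMy replicate 2 or tumor_untreated replicate 4 (adjusted p = 0.0572 to 0.0658). Fitting the 8 tumor-bearing libraries alone ended the call of Cxcr2 (adjusted p = 0.143).

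Cytotoxic genes moved both ways. Of 12 tested cytotoxic granule and death ligand genes 3 rose and 6 fell (1 rose and 5 fell without tumor_GEMy replicate 2 or 3). The 5 granzyme genes Gzmc to Gzmg all fell, by 1.64 to 2.09 on the log2 scale. Gzme, the one with the smallest fall, measured 2.47, 1.26, 1.89 and 1.28 FPKM in tumor_GEMy lungs, against 3.59, 4.23, 7.14 and 13.7 FPKM in tumor_untreated lungs (log2 fold change -1.64, SE 0.28, adjusted p = 0.00232), and Gzmf measured 2.41, 1.61, 1.85 and 1.33 FPKM in tumor_GEMy lungs, against 3.70, 6.46, 9.79 and 19.8 FPKM in tumor_untreated lungs (log2 fold change -1.96, SE 0.32, adjusted p = 0.00148). In all 5, tumor_untreated replicate 1 was the lowest and replicate 4 the highest of the untreated lungs, and every treated lung was below every untreated one. The 5 genes are similar neighbours in the genome, and reads may have been assigned to the wrong copy. Gzmb, the main granzyme of killer cells, lay at 13.0 to 18.1 FPKM in tumor_GEMy lungs and 8.16 to 25.4 FPKM in tumor_untreated lungs and did not pass (log2 fold change -0.27, SE 0.26, adjusted p = 0.632), and it fell without tumor_untreated replicate 1 (log2 fold change -0.64, adjusted p = 0.00903). Srgn, the proteoglycan on which granule proteins are packed, also fell (-0.54, adjusted p = 0.0285), a call lost without tumor_GEMy replicate 2 or 3 or tumor_untreated replicate 2 (adjusted p = 0.0501 to 0.0926). Another granzyme gene, Gzma, rose, at 21.7, 23.7, 38.3 and 21.0 FPKM in tumor_GEMy lungs, against 7.24, 18.3, 13.2 and 15.7 FPKM in tumor_untreated lungs (log2 fold change 0.95, SE 0.26, adjusted p = 0.0394), a call lost without tumor_GEMy replicate 2 or 3 or tumor_untreated replicate 1 or 3 (adjusted p = 0.0712 to 0.114). Nkg7, a granule membrane protein of killer cells, measured 56.8, 59.9, 74.8 and 55.2 FPKM in tumor_GEMy lungs, against 17.9, 33.0, 38.3 and 42.4 FPKM in tumor_untreated lungs (log2 fold change 0.96, SE 0.24, adjusted p = 0.0260). Its groups were separate, and the call was lost without tumor_GEMy replicate 2 or 3 or tumor_untreated replicate 2 (adjusted p = 0.0562 to 0.0768). Tnfsf10, which encodes the death ligand TRAIL, rose by 0.75 (adjusted p = 0.0153), and the perforin gene Prf1 had a similar log2 fold change and did not pass (0.75, adjusted p = 0.0612), though it passed without tumor_untreated replicate 4 (adjusted p = 0.0258). When no naive library entered the fit, the calls of Gzmc, Gzme, Gzmf, Gzma, Srgn, Nkg7 and Tnfsf10 were lost (adjusted p = 0.0525 to 0.163).

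Most lymphocyte identity genes did not pass the test, and over all tested genes 3.00% rose and 3.72% fell. Of 12 tested natural killer cell genes 3 rose and 0 fell (0 rose in a fit of the 8 tumor-bearing libraries), and besides Nkg7 they were Ncr1, which encodes the activating receptor NKp46, and Klrg1, an inhibitory receptor of mature killer cells. Ncr1 measured 2.34, 2.85, 3.70 and 3.35 FPKM in tumor_GEMy lungs, against 0.787, 2.01, 1.85 and 1.56 FPKM in tumor_untreated lungs (log2 fold change 0.82, SE 0.19, adjusted p = 0.0123). Klrg1 measured 1.25, 1.36, 2.25 and 1.5 FPKM in tumor_GEMy lungs, against 0.409, 0.782, 0.753 and 0.960 FPKM in tumor_untreated lungs (log2 fold change 0.77, SE 0.15, adjusted p = 0.00421). Both had separate groups, with tumor_untreated replicate 1 the lowest library. The summed level of the 18 listed natural killer cell genes was 221 to 330.2 reads per 1000000 in tumor_GEMy and 122 to 258 in tumor_untreated, which overlapped. One member fell without tumor_untreated replicate 1. Of 12 tested T cell genes 1 rose, the signalling adaptor Lat (0.55, adjusted p = 0.0114), which did not pass in a fit of the 8 tumor-bearing libraries (adjusted p = 0.0606), while Cd3e (0.15), Cd4 (0.13) and Cd8a (0.09) did not pass, as log2 fold changes. None of 11 tested B cell and plasma cell genes passed. Foxp3, the regulatory T cell factor, was below the minimum at 0.149 to 0.324 FPKM in tumor_GEMy lungs and 0.165 to 0.216 FPKM in tumor_untreated lungs, with overlapping groups.

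A number of cell cycle genes rose by small amounts. Of 25 tested members 13 rose and 0 fell, and the median log2 fold change was 0.34. Of the 13, 4 passed the minimum only through tumor_GEMy values. Top2a, a topoisomerase of dividing cells, measured 1.92, 1.91, 1.88 and 1.90 FPKM in tumor_GEMy lungs, against 0.663, 1.08, 1.47 and 0.995 FPKM in tumor_untreated lungs (log2 fold change 0.65, SE 0.11, adjusted p = 0.00151). Mki67, the proliferation marker Ki-67, measured 3.99, 3.60, 3.76 and 3.52 FPKM in tumor_GEMy lungs, against 1.64, 2.40, 3.29 and 2.09 FPKM in tumor_untreated lungs (log2 fold change 0.59, SE 0.13, adjusted p = 0.00921). Ccna2, a cyclin of S phase, rose as well (0.51, adjusted p = 0.0212), a call lost without tumor_GEMy replicate 3 or 4 (adjusted p = 0.0528 to 0.0531). The treated values of Top2a and Mki67 were nearly equal to each other and all above the untreated ones. The count was 6 without tumor_GEMy replicate 3, 7 without tumor_GEMy replicate 1, 8 without tumor_GEMy replicate 2 or tumor_untreated replicate 1 or 2, 4 without tumor_untreated replicates 1 and 4 together, and 2 in a fit of the 8 tumor-bearing libraries.

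Several inflammatory genes of myeloid cells fell in treated lungs. Il1b, which encodes the pyrogenic cytokine IL-1 beta, measured 9.08, 10.1, 6.96 and 13.9 FPKM in tumor_GEMy lungs, against 19.6, 27.1, 24.6 and 39.8 FPKM in tumor_untreated lungs (log2 fold change -1.42, SE 0.22, adjusted p = 0.000858). Clec4e, a receptor for microbial glycolipids on activated myeloid cells, measured 4.04, 2.40, 1.73 and 2.64 FPKM in tumor_GEMy lungs, against 5.54, 6.39, 7.05 and 9.46 FPKM in tumor_untreated lungs (log2 fold change -1.27, SE 0.18, adjusted p = 0.000488). Csf3r, the receptor for the neutrophil growth factor G-CSF, measured 12.1, 8.58, 5.75 and 12.0 FPKM in tumor_GEMy lungs, against 17.9, 18.1, 20.1 and 21.6 FPKM in tumor_untreated lungs (log2 fold change -1.03, SE 0.17, adjusted p = 0.00186). In all 3 genes every treated lung was below every untreated one. Cd300ld, an activating receptor of myeloid cells, measured 4.33, 3.93, 2.85 and 5.58 FPKM in tumor_GEMy lungs, against 8.08, 11.1, 11.5 and 10.8 FPKM in tumor_untreated lungs (log2 fold change -1.24, SE 0.15, adjusted p = 0.000194), and Wfdc17, which encodes a small secreted inhibitor, measured 31.7, 13.4, 7.70 and 11.2 FPKM in tumor_GEMy lungs, against 32.9, 35.8, 34.4 and 52.6 FPKM in tumor_untreated lungs (log2 fold change -1.43, SE 0.29, adjusted p = 0.00625). For Wfdc17, tumor_GEMy replicate 1 came near the untreated range. Trim30b, a member of the TRIM ubiquitin ligase family, measured 2.78, 1.93, 2.5 and 2.34 FPKM in tumor_GEMy lungs, against 5.41, 5.89, 5.45 and 7.85 FPKM in tumor_untreated lungs (log2 fold change -1.20, SE 0.12, adjusted p = 3.06e-05), with separate groups. Tnfsf14, which encodes the ligand LIGHT, fell too (-0.62, adjusted p = 0.00254). In a fit limited to the 8 tumor-bearing libraries, the call of Wfdc17 was lost (adjusted p = 0.0946).

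The neutrophil list as a whole depended on 1 library. Of its 20 tested members 6 fell and 0 rose, with a median log2 fold change of -0.62. Of the 20, tumor_GEMy replicate 1 was the highest treated library in 19. Without that library 16 of the 20 fell, with a median of -1.04. With all libraries, those that fell were Il1b, Clec4e, Csf3r, Cxcr2, Clec4d and Trem1. S100a8, which encodes a subunit of the neutrophil protein calprotectin, did not pass with all libraries, at 1046, 419, 362 and 385 FPKM in tumor_GEMy lungs, against 918, 788, 675 and 1273 FPKM in tumor_untreated lungs (log2 fold change -0.84, SE 0.32, adjusted p = 0.142). Without that library its log2 fold change was -1.19 (adjusted p = 0.00800). The summed level of the list was 1994 to 6235 reads per 1000000 in tumor_GEMy and 3769 to 6313 in tumor_untreated. Secondary granule genes of neutrophils such as Ltf (0.44), Camp (0.03) and Ngp (-0.03) did not pass, on the log2 scale. None of 5 tested primary granule genes of immature myeloid cells passed either (1 fell without tumor_GEMy replicate 1). The call of Trem1 was lost when the 8 tumor-bearing libraries were fitted alone (adjusted p = 0.111).

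Macrophage genes did not move in one direction. Over all tested genes 3.00% rose and 3.72% fell. Of 22 tested monocyte and macrophage genes 3 rose and 3 fell. The 3 that rose were C1qa (0.39, adjusted p = 0.00498), C1qb (0.36, adjusted p = 0.0186) and C1qc (0.42, adjusted p = 0.00760), the chains of complement C1q made by tissue macrophages. The C1qb call was lost without tumor_GEMy replicate 2 or tumor_untreated replicate 2 (adjusted p = 0.0552 to 0.0574). Ms4a4a, a surface protein of macrophages, measured 0.223, 0.289, 0.177 and 0.298 FPKM in tumor_GEMy lungs, against 0.550, 0.700, 0.991 and 1.06 FPKM in tumor_untreated lungs (log2 fold change -0.81, SE 0.10, adjusted p = 0.000248) and passed the minimum only through tumor_untreated values. Its groups were separate. Nr4a1, described with the immediate early genes, was another of the 3. Csf1r, the receptor for the macrophage growth factor, fell (log2 fold change -0.58, SE 0.15, adjusted p = 0.0276), and that call was lost without tumor_GEMy replicate 1, 2 or 3 or tumor_untreated replicate 2, 3 or 4 (adjusted p = 0.0607 to 0.0971). Without tumor_untreated replicate 1, 9 members fell, and 1 fell without tumor_untreated replicate 2 or 3. Of the alveolar macrophage genes 1 of 13 rose, Chil3 (log2 fold change 0.63, SE 0.18, adjusted p = 0.0440), a call lost without tumor_GEMy replicate 1, 3 or 4 or tumor_untreated replicate 1, 2 or 3 (adjusted p = 0.0504 to 0.144). Among 6 Fc receptor genes 1 fell, Fcer1g (-0.53, adjusted p = 0.0390), the shared signalling chain, a call lost without tumor_GEMy replicate 1, 2, 3 or 4 or tumor_untreated replicate 2, 3 or 4 (adjusted p = 0.0606 to 0.120). Fitting the 8 tumor-bearing libraries alone ended the calls of C1qa, C1qb, C1qc, Csf1r, Chil3 and Fcer1g (adjusted p = 0.0720 to 0.164).

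**Figure D3:**
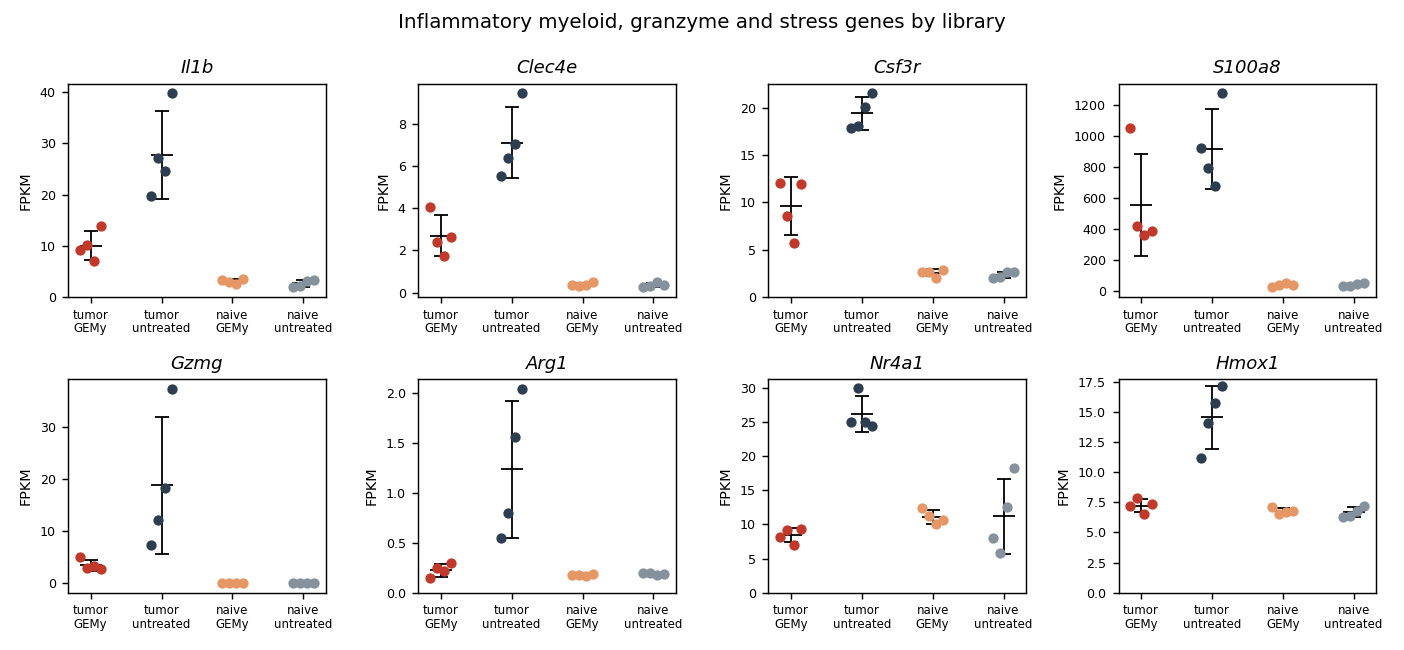
FPKM of 8 genes in each lung library, with points for libraries, bars for the group mean and whiskers for the SD (n = 4). For all but S100a8 the 4 tumor_GEMy values lay below the 4 tumor_untreated values, and tumor_GEMy replicate 1 at 1046 FPKM was the S100a8 value inside the untreated range.

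Receptors and relays of inflammatory signals changed in both directions. Over all tested genes 3.00% rose and 3.72% fell. Of 15 tested toll-like receptor and adaptor genes 1 rose and 2 fell. Tlr11 rose (log2 fold change 0.61, SE 0.13, adjusted p = 0.00894), and Tlr1 (log2 fold change -0.59, SE 0.13, adjusted p = 0.0118) and Tlr6 (log2 fold change -0.55, SE 0.12, adjusted p = 0.00849), partners of TLR2 for bacterial lipopeptides, fell. All 3 calls held without any 1 library, and 4 genes fell without tumor_GEMy replicate 4 or tumor_untreated replicate 1. Of 19 tested tumor necrosis factor and NF-kappaB genes 1 rose and 3 fell. Tnfrsf1b, which encodes the receptor TNFR2, fell (log2 fold change -0.66, SE 0.18, adjusted p = 0.0332), a call lost without tumor_GEMy replicate 1, 2 or 3 or tumor_untreated replicate 2, 3 or 4 (adjusted p = 0.0607 to 0.111). Nfkbia, the inhibitor that NF-kappaB induces, fell (log2 fold change -0.31, SE 0.07, adjusted p = 0.0191), and Birc3, another such target, fell (log2 fold change -0.28, SE 0.07, adjusted p = 0.0320) and lost its call without tumor_GEMy replicate 1, 2, 3 or 4 or tumor_untreated replicate 3 or 4 (adjusted p = 0.0551 to 0.0988). Of 9 tested colony-stimulating factor genes 1 rose, Csf1, and 3 fell, Csf1r, Csf2ra and Csf3r. The receptor chain Csf2ra (log2 fold change -0.39, SE 0.09, adjusted p = 0.0153) lost its call without tumor_GEMy replicate 3 or tumor_untreated replicate 2 or 3 (adjusted p = 0.0521 to 0.0552). When no naive library entered the fit, the calls of Tlr1, Tlr6, Tnfrsf1b, Nfkbia, Birc3, Csf1 and Csf2ra were lost (adjusted p = 0.0888 to 0.156). In that fit 1 toll-like receptor gene rose and 0 fell. The tumor necrosis factor list had 1 rise and 0 falls, and the colony-stimulating factor list 0 rises and 1 fall.

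Some iron handling genes were also lower. Of 12 tested members 5 fell and 0 rose (the rises were 1 without tumor_GEMy replicate 4, tumor_untreated replicate 1 or tumor_untreated replicate 4, and 2 fell in a fit of the 8 tumor-bearing libraries). Slc40a1, which encodes the iron exporter ferroportin, measured 2.17, 1.61, 1.30 and 2.42 FPKM in tumor_GEMy lungs, against 4.00, 4.81, 4.83 and 4.99 FPKM in tumor_untreated lungs (log2 fold change -1.14, SE 0.12, adjusted p = 5.57e-05). Hmox1, the heme-degrading enzyme, measured 7.17, 7.88, 6.53 and 7.35 FPKM in tumor_GEMy lungs, against 11.2, 14.1, 15.7 and 17.2 FPKM in tumor_untreated lungs (log2 fold change -0.95, SE 0.10, adjusted p = 4.88e-05). Both had separate groups. Steap4, a metalloreductase, measured 3.36, 2.44, 1.61 and 3.32 FPKM in tumor_GEMy lungs, against 3.64, 5.35, 5.37 and 5.82 FPKM in tumor_untreated lungs (log2 fold change -0.82, SE 0.16, adjusted p = 0.00507), with separate groups. Slc11a1, a metal transporter of phagosomes, fell as well (-0.75, adjusted p = 0.00383), and the hemoglobin gene Hbb-bs, which follows red cells, did not pass (-0.78, 95% interval -2.54 to 0.97). In a fit limited to the 8 tumor-bearing libraries, the calls of Steap4 and Slc11a1 were lost (adjusted p = 0.0539 to 0.0765).

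Immediate early genes, which cells switch on within minutes of a stimulus or of handling, fell in part. Of 19 tested members 8 fell and 0 rose (6 to 8 when any 1 library was left out), and the median log2 fold change was -0.45. Of the 8, Nr4a2 and Nr4a3 passed the minimum only through tumor_untreated values. Nr4a1, a nuclear receptor of activated lymphocytes and patrolling monocytes, measured 8.13, 9.20, 7.05 and 9.33 FPKM in tumor_GEMy lungs, against 25.1, 30.1, 25.0 and 24.5 FPKM in tumor_untreated lungs (log2 fold change -1.58, SE 0.23, adjusted p = 0.000691). Egr3 measured 1.22, 1.66, 1.34 and 1.48 FPKM in tumor_GEMy lungs, against 2.21, 3.19, 2.75 and 3.36 FPKM in tumor_untreated lungs (log2 fold change -0.80, SE 0.14, adjusted p = 0.00196). Junb, a subunit of the transcription factor AP-1, measured 44.3, 43.4, 37.0 and 27.0 FPKM in tumor_GEMy lungs, against 67.3, 60.1, 58.7 and 52.3 FPKM in tumor_untreated lungs (log2 fold change -0.67, SE 0.15, adjusted p = 0.0133). The groups were separate for all 3. Fos (-0.60, adjusted p = 0.0812) and Egr1 (-0.60, adjusted p = 0.0675) had log2 fold changes of like size and did not pass, though Fos passed without tumor_untreated replicate 3 (adjusted p = 0.0405). Dusp1, a phosphatase that is also a glucocorticoid target, fell (-0.82, adjusted p = 0.00766), and the other 10 tested glucocorticoid-responsive genes did not pass. None of 14 tested heat shock genes passed. The calls of Nr4a2, Junb and Dusp1 were lost when the 8 tumor-bearing libraries were fitted alone (adjusted p = 0.0525 to 0.0646).

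All 4 tested goblet and mucous cell genes rose, among them the gene with the largest fold change of the comparison. Clca1 (chr3:145004537-145032777), a protein that goblet cells secrete with mucus, measured 2.7, 5.03, 30.6 and 19.7 FPKM in tumor_GEMy lungs, against 1.52, 0.263, 0.262 and 0.747 FPKM in tumor_untreated lungs. The treated values were far apart from each other, and the lowest was still above the highest untreated one (log2 fold change 3.22, SE 0.57, adjusted p = 0.00344). Retnla, a small secreted protein of airway cells and of macrophages exposed to IL-4 or IL-13, measured 71.1, 83.0, 241 and 180.2 FPKM in tumor_GEMy lungs, against 31.7, 20.4, 19.5 and 29.0 FPKM in tumor_untreated lungs (log2 fold change 2.34, SE 0.31, adjusted p = 0.000302). The goblet and mucous cell list held 12 genes, of which those 4 were tested. They included Muc5b, a mucin of airway secretory cells, at 3.40, 3.81, 6.53 and 4.94 FPKM in tumor_GEMy lungs, against 3.06, 2.30, 2.44 and 1.88 FPKM in tumor_untreated lungs (log2 fold change 0.80, SE 0.17, adjusted p = 0.00766). Tff2, a mucus-associated trefoil factor, measured 3.34, 4.33, 8.35 and 6.97 FPKM in tumor_GEMy lungs, against 2.93, 1.80, 2.16 and 2.11 FPKM in tumor_untreated lungs (log2 fold change 1.12, SE 0.20, adjusted p = 0.00348). The fourth was Pigr, the epithelial receptor that carries IgA across the airway lining, at 4.21 to 7.76 FPKM in tumor_GEMy lungs and 3.28 to 3.74 FPKM in tumor_untreated lungs. In all 4 genes tumor_GEMy replicate 1 was the lowest and replicate 3 the highest treated library, and no treated value fell within the untreated range. Muc5ac, Agr2 and Spdef, other goblet cell genes, were below the minimum. Fitting the 8 tumor-bearing libraries alone ended the calls of Clca1, Muc5b and Tff2 (adjusted p = 0.0559 to 0.0630).

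Around them, Reg3g, an antibacterial lectin of epithelial cells, measured 13.5, 15.8, 38.8 and 22.8 FPKM in tumor_GEMy lungs, against 11.6, 8.86, 8.92 and 6.66 FPKM in tumor_untreated lungs (log2 fold change 1.19, SE 0.27, adjusted p = 0.0118), with separate groups. Prss34, a protease of basophils and mast cells, measured 7.88, 2.98, 5.10 and 4.17 FPKM in tumor_GEMy lungs, against 1.23, 1.03, 0.718 and 3.24 FPKM in tumor_untreated lungs (log2 fold change 1.5, SE 0.29, adjusted p = 0.00469), and here tumor_untreated replicate 4 lay above the lowest treated lung. Of other basophil and mast cell genes, Mcpt8 did not pass (0.39, 95% interval -0.24 to 1.01) and Fcer1a and Cpa3 were below the minimum. The cytokine genes Il4, Il5 and Il13 were below the minimum. For reference, 3.00% of all tested genes rose and 3.72% fell. Of 9 tested type 2 associated genes 4 rose and 1 fell, namely Retnla, Chil3, Il33 (0.39, adjusted p = 0.0355) and Gata3 (0.23, adjusted p = 0.0303) up and the receptor chain Il13ra1 (-0.39, adjusted p = 0.00557) down. The number that rose was 1 without tumor_GEMy replicate 4 or tumor_untreated replicate 2, and 2 without tumor_GEMy replicate 3 or tumor_untreated replicate 1 or 3, and 1 in a fit of the 8 tumor-bearing libraries, where 0 fell. When no naive library entered the fit, the calls of Reg3g, Prss34, Il13ra1, Il33 and Gata3 were lost (adjusted p = 0.0525 to 0.161).

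**Figure D4:**
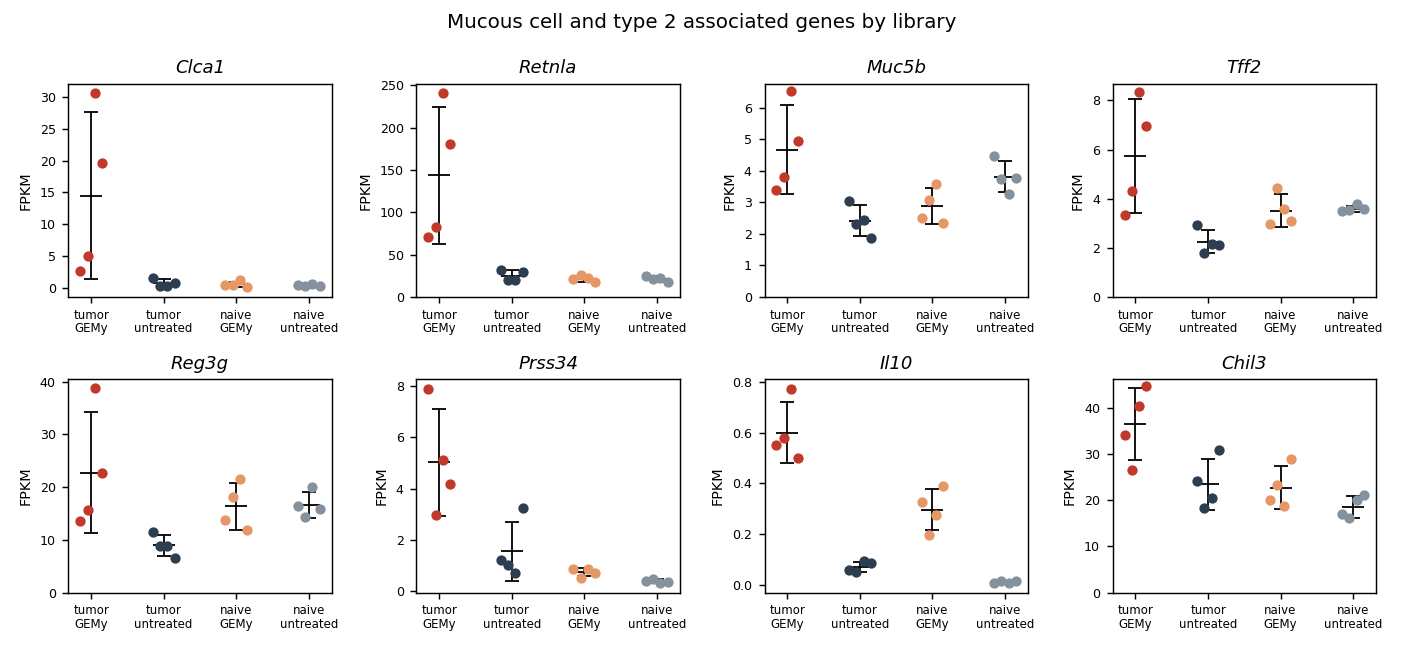
FPKM of 8 mucous cell and type 2 associated genes in each lung library, with points for libraries, bars for the group mean and whiskers for the SD (n = 4). Every tumor_GEMy value of Clca1 (2.7 to 30.6 FPKM) and of Retnla (71.1 to 241 FPKM) lay above every value of the other 3 groups.

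Complement genes made another set with many rises, where 3.00% of all tested genes rose and 3.72% fell. Of 20 tested members 11 rose and 1 fell, with a median log2 fold change of 0.38 (9 to 11 rose when any 1 library was left out, and 5 in a fit of the 8 tumor-bearing libraries). They covered the classical pathway, with C4b at 26.5, 25.8, 26.2 and 23.4 FPKM in tumor_GEMy lungs, against 19.2, 12.8, 17.9 and 14.0 FPKM in tumor_untreated lungs (log2 fold change 0.67, SE 0.11, adjusted p = 0.00165), and C1ra (0.54), C1s1 (0.55) and C2 (0.50) on the log2 scale. They also included C3 (0.47), the alternative pathway protease Cfb (0.48) and the C1 inhibitor Serping1 (0.40). Cfd, the factor D of the alternative pathway, which fat cells also make, measured 32.3, 35.5, 36.7 and 90.3 FPKM in tumor_GEMy lungs, against 27.4, 26.4, 21.6 and 20.1 FPKM in tumor_untreated lungs (log2 fold change 0.88, SE 0.24, adjusted p = 0.0390). Replicate 4 of tumor_GEMy stood far above the rest. Adipoq, a marker of fat cells, measured 0.877, 0.869, 0.871 and 3.64 FPKM in tumor_GEMy lungs, against 0.857, 0.865, 0.638 and 0.604 FPKM in tumor_untreated lungs, highest in the same library (0.55, adjusted p = 0.269), and its part in the Cfd result was not tested. The Cfd call was lost without tumor_untreated replicate 2, 3 or 4 (adjusted p = 0.0657 to 0.0993) and with the replicate number as a block (adjusted p = 0.0629). The member that fell was C5ar1, the C5a receptor of myeloid cells (-0.57, adjusted p = 0.0359), a call lost without tumor_GEMy replicate 2, 3 or 4 or tumor_untreated replicate 2, 3 or 4 (adjusted p = 0.0652 to 0.109). Of 8 tested acute phase genes 1 rose, Itih4 (0.71, adjusted p = 0.000539). The Serping1 call was lost without tumor_GEMy replicate 1 or 3 (adjusted p = 0.0508 to 0.0555). In a fit limited to the 8 tumor-bearing libraries, the calls of Cfb, Serping1, Cfd and C5ar1 were lost (adjusted p = 0.0765 to 0.190).

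Most genes of resident lung cells did not pass the test, where 3.00% of all tested genes rose and 3.72% fell. Of 13 alveolar type 2 cell genes 2 rose, the mucin Muc1 (log2 fold change 0.35, SE 0.07, adjusted p = 0.00390) and the surfactant protein Sftpd (log2 fold change 0.34, SE 0.08, adjusted p = 0.0203). The Sftpd call was lost without tumor_GEMy replicate 3 or tumor_untreated replicate 2 or 3 (adjusted p = 0.0637 to 0.0719). Of 11 club cell genes 2 rose, Scgb3a1 (0.55, adjusted p = 0.0377), a call lost without tumor_GEMy replicate 1, 2, 3 or 4 or tumor_untreated replicate 2, 3 or 4 (adjusted p = 0.0507 to 0.112), and Reg3g. The summed level of the 13 alveolar type 2 genes was 25848 to 29648 reads per 1000000 in tumor_GEMy and 20580.4 to 25735 in tumor_untreated. These ranges did not overlap, and the list had a median log2 fold change of 0.22. None of 12 alveolar type 1, 8 motile cilia, 27 fibroblast and matrix, 9 smooth muscle, 11 cardiac muscle or 5 mesothelial and fat cell genes passed. Without tumor_untreated replicate 1, 5 alveolar type 2, 1 fibroblast and matrix and 1 mesothelial or fat cell gene rose, and 1 smooth muscle gene fell without tumor_untreated replicate 4. Of 21 endothelial genes 3 fell and 0 rose: Sox17 (-0.40, adjusted p = 0.0203), a factor of arterial endothelium, Emcn (-0.31, adjusted p = 0.00869), a glycoprotein of veins and capillaries, and the lung developmental RNA Fendrr (-0.49, adjusted p = 0.0209). The Sox17 call was lost without tumor_GEMy replicate 1 or 2 or tumor_untreated replicate 2 or 3 (adjusted p = 0.0530 to 0.0736) and the Fendrr call without tumor_GEMy replicate 2 or 4 or tumor_untreated replicate 2 or 3 (adjusted p = 0.0602 to 0.0775). The endothelial count was 6 without tumor_untreated replicate 4, 1 without tumor_GEMy replicate 2 or tumor_untreated replicate 2 or 3, and 0 in a fit of the 8 tumor-bearing libraries. The pan-endothelial genes Pecam1 (-0.13) and Cdh5 (-0.05) did not pass, on the log2 scale. Selplg, the selectin ligand of leukocytes, was the 1 of 11 adhesion genes that fell (-0.50, adjusted p = 0.0278), a call lost without tumor_GEMy replicate 2 or 3 or tumor_untreated replicate 2, 3 or 4 (adjusted p = 0.0567 to 0.0785), and 5 fell without tumor_untreated replicate 1. Of 13 matrix protease genes 2 fell, Adam8 of leukocytes (-0.68, adjusted p = 0.00564) and Adamts1 (-0.49, adjusted p = 0.0112), and 4 fell without tumor_GEMy replicate 1 or tumor_untreated replicate 1. For the tumor line's own lineage, the 2 tested myogenic genes did not pass and Chrna1 and Pax7 were below the minimum. Among 19 tested glycolysis genes Pfkfb3 (0.86, adjusted p = 0.00106), which makes the activator of phosphofructokinase, and Pfkp (0.21, adjusted p = 0.0448) rose and the lactate exporter gene Slc16a3 fell (-0.83, adjusted p = 0.00616), with the Pfkp call lost without tumor_GEMy replicate 2, 3 or 4 or tumor_untreated replicate 1, 2 or 3 (adjusted p = 0.0604 to 0.128). None of 23 oxidative phosphorylation genes, 9 erythroid genes or 10 platelet genes passed. The calls of Sftpd, Scgb3a1, Sox17, Emcn, Fendrr, Selplg, Adam8, Adamts1, Slc16a3 and Pfkp were lost when the 8 tumor-bearing libraries were fitted alone (adjusted p = 0.0514 to 0.175).

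**Figure D5:**
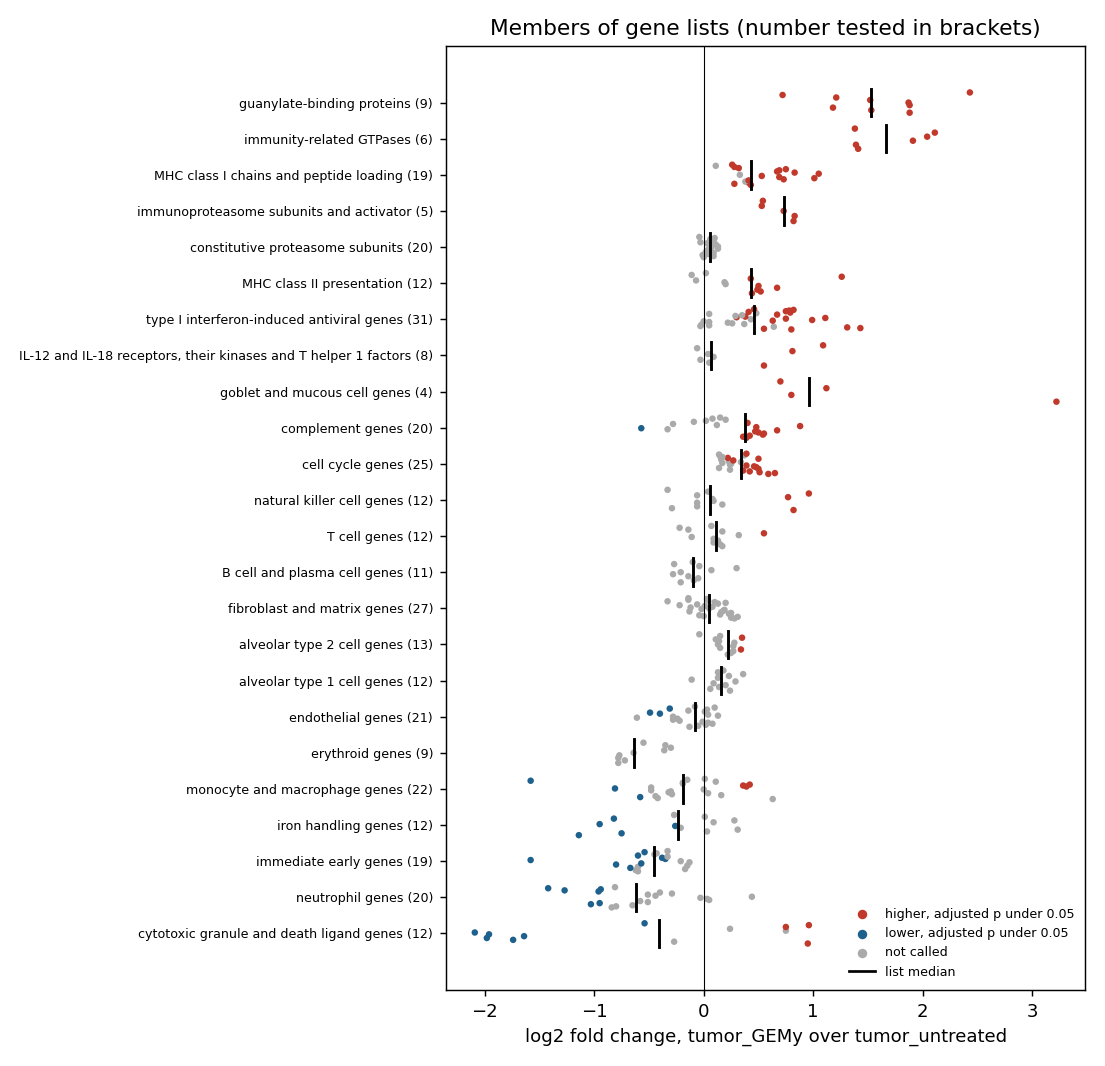
Log2 fold change of tumor_GEMy over tumor_untreated for the tested members of 24 gene lists, with 1 point per gene, red for higher and blue for lower at an adjusted p under 0.05, grey for not called, and a black bar at the list median. The guanylate-binding proteins and immunity-related GTPases had medians of 1.53 and 1.66, and the neutrophil list a median of -0.62.

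Some genes that fell in treated lungs had values close to those of lungs with neither tumor nor cells, with intervals of the difference that include 0. That comparison, tumor_GEMy with naive_untreated, shares the tumor_GEMy libraries with the one above, and 4038 of the 10284 genes passed in it (39.3%), 1403 higher (13.6%) and 2635 lower (25.6%). With median-of-ratios scaling the balance turned, to 1993 higher and 1363 lower. Hmox1 differed by 0.11 on the log2 scale (95% interval -0.10 to 0.32, adjusted p = 0.406), Egr3 by 0.02 (-0.27 to 0.31, adjusted p = 0.918) and Nr4a1 by -0.28 (-0.77 to 0.21, adjusted p = 0.358). Arg1 differed by 0.08 (-0.33 to 0.48, adjusted p = 0.777). None of these 4 passed. Arg1 passed the minimum only through tumor_untreated values, so low levels in both groups of this comparison follow largely from that filter. Muc5b and Reg3g, which rose over tumor_untreated, did not pass against naive_untreated either, at 0.23 (-0.13 to 0.59, adjusted p = 0.291) and 0.33 (-0.24 to 0.90, adjusted p = 0.342). Other genes that fell stayed above naive_untreated lungs, among them Il1b (1.72, adjusted p = 2e-05), Clec4e (1.86, adjusted p = 1.18e-06), Csf3r (1.78, adjusted p = 1.45e-06) and Slfn4 (3.29, adjusted p = 7.76e-09). The interferon targets were far above them, with Gbp2 at 4.06 and Igtp at 4.13 on the same log2 scale. Clca1 (3.53, adjusted p = 0.000282) and Il10 (1.10, adjusted p = 2.56e-08) were also above naive_untreated lungs. Il10 passed the minimum only through tumor_GEMy values, so its place above naive_untreated lungs follows largely from that filter.

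Whether the cells did the same in lungs without a tumor was tested as an interaction, the difference in tumor-bearing lungs minus the difference in naive lungs. It passed for 644 genes (6.26%), 107 higher (1.04%) and 537 lower (5.22%). The number higher was 332 without tumor_untreated replicate 1, and 48 to 70 without tumor_GEMy replicate 2 or 3, tumor_untreated replicate 3 or 4, naive_GEMy replicate 1 or 4, or naive_untreated replicate 1, 2 or 4. The number lower was 904 without tumor_untreated replicate 1, 318 without tumor_untreated replicate 3, 336 without naive_GEMy replicate 4, 334 without naive_untreated replicate 1 and 355 without naive_untreated replicate 2. Of the interferon targets, 8 of 9 guanylate-binding protein genes and 6 of 6 immunity-related GTPase genes had a lower difference in tumor-bearing lungs. Igtp lay at 102 to 126 FPKM in tumor_GEMy lungs and 18.7 to 47.5 FPKM in tumor_untreated lungs, and at 94.7 to 113 FPKM in naive_GEMy lungs and 5.81 to 7.09 FPKM in naive_untreated lungs (interaction -2.05, adjusted p = 0.00122). The ranges of the groups given cells overlapped, and those of the groups without cells were apart. Cxcl10 had the lowest interaction value (-3.49, adjusted p = 0.00288), with 20.5 to 40.8 FPKM in tumor_GEMy lungs and 6.98 to 41.1 FPKM in tumor_untreated lungs, and 14.0 to 22.8 FPKM in naive_GEMy lungs and 0.553 to 0.687 FPKM in naive_untreated lungs. Among genes with a positive value, Clca1 (3.13, adjusted p = 0.0345) lay at 0.168 to 1.16 FPKM in naive_GEMy lungs and 0.268 to 0.572 FPKM in naive_untreated lungs, and Retnla (2.33, adjusted p = 0.00543) at 17.3 to 25.5 FPKM in naive_GEMy lungs and 17.1 to 24.3 FPKM in naive_untreated lungs. The Clca1 interaction did not pass without tumor_GEMy replicate 4, without tumor_untreated replicate 2, 3 or 4, without naive_GEMy replicate 1, 2 or 4, or without any 1 of the naive_untreated libraries (adjusted p = 0.0545 to 0.0795). Muc5b (1.16, adjusted p = 0.00916) lay at 2.35 to 3.59 FPKM in naive_GEMy lungs and 3.27 to 4.47 FPKM in naive_untreated lungs, where the naive groups overlapped. All 4 tested goblet and mucous cell genes had a positive interaction past the threshold, though Tff2 lost its call without tumor_GEMy replicate 4, tumor_untreated replicate 2 or 3, naive_GEMy replicate 1 or 4 or naive_untreated replicate 1 or 2 (adjusted p = 0.0504 to 0.0615). Il1b had a negative interaction (-1.60, adjusted p = 0.00631) and lay at 2.52 to 3.43 FPKM in naive_GEMy lungs and 1.96 to 3.37 FPKM in naive_untreated lungs. Ifng (-0.10, 95% interval -0.70 to 0.50), Il12rb1 (-0.02, -0.26 to 0.22) and Il10 (0.30, 0.08 to 0.52) did not pass the interaction test. The Ifng value turned positive in several settings, at 0.06 with a pseudocount of 1 and at 0.12 without tumor_untreated replicate 4.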

How the data were processed

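RNA was sequenced from 16 lungs in 4 groups of 4 and from 1 cell product, which was left out. The authors deposited FPKM values per gene, made with STAR 2.7.3a and Partek on genome build mm10 per the submitters' processing notes. The annotation and counting settings are not given in the sources used here. In the deposited FPKM values, length is the genomic span with introns, so levels of different genes are on the scale of that span. The step of 1 read gave the depth, and 86.7 to 88.4% of values under 1000 reads came out whole within 0.02.

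Genes at 0.5 FPKM or more in at least 4 of 16 lungs (10284 of 18262) were fitted as log2(FPKM + 0.5) with limma 3.58.1 in R 4.3.3, with 4 group means, trended and robust moderation and Benjamini-Hochberg adjusted two-sided p-values. All 16 lungs shared 1 estimate of the spread. The fit was tested on simulated data that gave each gene the same spread in all 4 groups. Unequal spread between groups was not simulated. Genes named are the 12 largest rises and 12 largest falls with groups that do not overlap (predicted genes, pseudogenes, histone, ribosomal, receptor segment and small RNA genes left out), up to 3 called genes from each of 62 lists, the 5 largest interactions on each side and a fixed set, plus list members chosen after their values were seen. Results for a few genes that this rule names are not reported here. Members and lists were chosen with earlier results of these data known. Alternatives tried were other pseudocounts, minima, scalings and moderation, array weights, a hemoglobin covariate, the replicate block, voom on recovered reads, only the compared groups, and leaving out libraries. Motifs were matched in Python 3.11.15.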

Additional observations from a re-analysis of the deposited data

Results flagged for a closer look

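In 22 cases 1 library of 4 stood far from the other 3 of its group, a gap that chance gives in about 1 in 20 groups. Every tested gene named here was screened in both tumor-bearing groups, so chance alone would give many such cases. Whether there were more than chance gives was not tested. Among tumor_GEMy lungs these were Wars in replicate 4 (37.9 FPKM), Irf1 in replicate 4 (66.6), Cfd in replicate 4 (90.3), Adipoq in replicate 4 (3.64), C1ra in replicate 4 (15.8), Rasd1 in replicate 4 (2.63), Tbx21 in replicate 3 (1.89), Itih4 in replicate 3 (10.4), Ccl19 in replicate 2 (3.01), Slfn4 in replicate 1 (12.9), Ngp in replicate 1 (127), Fdps in replicate 1 (5.90) and S100a8 in replicate 1 (1046 FPKM). Among tumor_untreated lungs they were Ifit3b in replicate 1 (4.24 FPKM), Xcl1 in replicate 1 (0.210), Slc11a1 in replicate 1 (4.34), Tnfsf10 in replicate 1 (7.13), Gzmb in replicate 1 (8.16), Nr4a1 in replicate 2 (30.1), H2-Ab1 in replicate 3 (120.1), Clec4d in replicate 4 (5.31) and Ccl8 in replicate 4 (6.20 FPKM).

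The effect of the cells differed between tumor-bearing and naive lungs for 90 named genes, by limma's test of the interaction at an adjusted p under 0.05. Over all tested genes 6.26% passed. Many named genes were chosen by the tumor_GEMy against tumor_untreated comparison, which is part of the interaction, and some by the interaction itself. A high count among them is therefore built in. Arg1, Ms4a4a and Nr4a3 passed the minimum only through tumor_untreated values. The values below are log2 differences, the effect in tumor-bearing lungs minus the effect in naive lungs. Positive values were found for Clca1 (3.13), Retnla (2.33), Tff2 (1.16), Muc5b (1.16) and Pigr (0.74). The complement protease C1s1 (0.44), Muc1 (0.50), Itih4 (0.60) and the small GTPase Rasd1 (1.03) were also positive. All others were negative. Interferon-induced GTPases lay at -1.34 for Gbp10, -1.67 for Gbp5, -1.81 for Gbp2, -1.91 for Gbp6, -1.72 for Iigp1, -1.08 for Gbp9, -2.05 for Igtp, -2.29 for Tgtp1 and -1.94 for Tgtp2. Signalling factors and other interferon targets were Stat2 -0.83, Irf1 -0.85, Irf8 -0.54, Irf9 -0.61, Ifngr1 -0.38, Socs3 -0.70, Oas3 -1.30, Rsad2 -1.42, Wars -1.05, Zbp1 -1.98, Serpina3g -1.32, Serpina3f -2.41, Il18bp -1.39, Cd274 -1.77, Trim30b -1.32 and Slfn4 -1.40. Antigen presentation genes were B2m -0.91, Nlrc5 -0.97, H2-DMa -0.48, Psmb10 -0.71, Psmb8 -0.92, Psmb9 -1.03, H2-T23 -0.97 and Tap1 -1.41.

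Chemokines had values of -0.87 for Ccl8, -1.04 for Ccl9, -3.18 for Cxcl9 and -3.49 for Cxcl10. Killer cell genes had Gzme at -1.63, Gzmc at -1.81, Gzmf at -1.96, Gzmd at -1.98, Gzmg at -2.09, Gzmb at -2.49, Gzma at -1.41, Prf1 at -1.56, Srgn at -0.89, Il18rap at -0.80, Havcr2 at -0.77, Nkg7 at -1.21 and Cd244a at -1.19. Myeloid genes had Csf1r at -0.92, Csf2ra at -0.96, Csf3r at -1.13, Fcer1g at -1.41, Ms4a4a at -1.0, Clec4d at -0.86, Clec4e at -1.29, Trem1 at -1.03, C1qb at -0.54, Slc11a1 at -1.42, Cd300ld at -1.33, Il1b at -1.60, Wfdc17 at -2.03, Arg1 at -1.15, Selplg at -1.06, Tlr1 at -0.83 and Tlr6 at -0.88. Tumor necrosis factor and NF-kappaB genes had Birc3 at -0.51, Nfkbia at -0.52, Tnfsf14 at -0.82 and Tnfrsf1b at -1.29. The rest were Il13ra1 -0.42, Tgfb1 -0.62, the clock gene Ciart -0.70, Slc40a1 -0.78, Hmox1 -0.97, Slc16a3 -0.91, Junb -0.87, Egr3 -1.14, Nr4a3 -0.64 and Nr4a1 -1.69.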

How the results depend on the processing

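The cause of each shift below was not tested. The report names 135 genes that were called. With each of the 8 tumor-bearing libraries left out in turn, 130 of them were tested every time and 102 kept the call every time. The other 5, Arg1, Ms4a4a, Il10, Nr4a2 and Nr4a3, were not tested without some libraries. Under every alternative that tested the gene, 63 kept the call. A fit of the 8 tumor-bearing libraries alone ended 71 calls (adjusted p = 0.0514 to 0.199). It called 210 genes, 124 higher and 86 lower, 11 of the lower ones by at least 2-fold. Array weights gave 2358 calls, 694 higher and 1664 lower. Leaving out 1 library gave 451 to 899 calls, 224 to 576 of them lower, and 15 to 31 lower by at least 2-fold. That last count was 28 with a pseudocount of 0.1 and 38 with voom on recovered reads. Other settings ended fewer calls: 1 with array weights, 8 with median-of-ratios scaling, 4 with quantile normalization, 14 with no minimum, 12 with the hemoglobin covariate and 21 without tumor_untreated replicates 1 and 4, an alternative added after the values were seen. Cfd and Birc3 were among those lost in several of them.

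Higher interaction calls numbered 223 with quantile normalization, 484 with array weights, 180 without tumor_untreated replicates 1 and 4, and 48 to 332 when 1 library was left out. Lower ones numbered 1397 with array weights and 318 to 904 when 1 library was left out. Against naive_untreated, 1993 genes were higher and 1363 lower with median-of-ratios scaling. The log2 fold change of Cxcl9 ranged over -0.40 to 0.45 when 1 library was left out, at -0.08 without tumor_GEMy replicate 2, -0.40 without tumor_untreated replicate 1 and -0.12 without tumor_untreated replicate 2, and turned to -0.05 without tumor_untreated replicates 1 and 4. Hbb-bs turned to 0.28 with array weights and 0.03 without those replicates. Log2 fold changes of other genes that were not called also crossed 0. When 1 library was left out they ranged over -0.49 to 0.28 for Camp, -0.17 to 0.30 for Cd8a, -0.17 to 0.03 for Cdh5, -0.15 to 0.04 for H2-Ob, -0.01 to 0.14 for Il18rap, -0.14 to 0.18 for Isg20, -0.10 to 0.04 for Jak2, -0.26 to 0.02 for Lag3, -0.03 to 0.68 for Ltf, -0.19 to 0.11 for Mx1, -0.77 to 0.24 for Ngp, -0.14 to 0.22 for Oas3 and -0.17 to 0.40 for Rsad2. With array weights Camp turned to -0.29, H2-Ob to 0.10 and Isg20 to 0.24, and with the hemoglobin covariate Isg20 turned to 0.11 and Ngp to 0.04. Mx1 turned to 0.02 with quantile normalization and with voom. Without tumor_untreated replicates 1 and 4, H2-Ob turned to 0.04, Il18r1 to -0.01, Isg20 to 0.12, Ngp to 0.26, Oas3 to -0.01, Psmb7 to -0.01 and Tyk2 to -0.04. The Ifng interaction turned to 0.06 with a pseudocount of 1, 0.27 with quantile normalization, 0.23 with array weights and 0.12 without tumor_untreated replicate 4, over a range of -0.28 to 0.12 when 1 library was left out. Against naive_untreated, quantile normalization turned Arg1 to -0.25 and Sftpc to 0.00.

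Same-numbered libraries of tumor_GEMy and tumor_untreated correlated at 0.09 to 0.26 in their deviations from the group means, and 2 of 4 matched their own number best. Since 1 of the 4 pairs lay under 0.1 and the labels name no shared batch, the fit reported has no block, and whether same-numbered libraries share a batch was not tested. With the replicate block the fit called 827 genes, 328 higher and 499 lower. It gave 157 higher and 642 lower interactions and ended the calls of Cfd (adjusted p = 0.0629) and Irf9 (adjusted p = 0.0544), while Prf1 passed (adjusted p = 0.0387). Low counts limit genes such as Il10, and genes under the minimum were not tested.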
